A study of Homo sapiens with 16 samples.

Results

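Corin was compared with its vehicle DMSO in 451Lu-R, a human melanoma cell line that had become resistant to BRAF inhibitors and that the study describes as high in *MITF* and low in *AXL*. Corin is a bivalent small molecule that inhibits both enzymes of the CoREST repressor complex, the histone demethylase LSD1 and the deacetylases HDAC1 and HDAC2. RNA-Seq of polyA RNA was made from 2 libraries of 451Lu-R treated with 2.5 μM corin and 2 treated with DMSO, for 24 h. Another BRAF inhibitor-resistant line, 1205Lu-R, received the same 2 treatments in 2 libraries each and is used here for comparison alone. The members are genes: of the 34228 genes in the count table, 14530 passed a filter on low counts in the 4 libraries of 451Lu-R, and 4233 of these had a mean of at least 50 counts in each 1000000 of the library (CPM) and are called well-expressed. No measured change was used to choose them.

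The 451Lu-R libraries held 9663987 to 11797788 estimated counts, and the 10 genes with most counts took 6.69% to 8.78% of a library. The sources used here do not say whether the 2 libraries of a group were separate cultures, so p-values measure the spread between these libraries, which may be technical. Replicate libraries differed by more than sampling noise, with a chi-square per degree of freedom of 1.40 with DMSO and 1.35 with corin. CPM values were scaled with the same normalization as the fold changes (TMM, which assumes that most genes do not change). Scaling to the library total instead moved the median log2 fold change by -0.0991. In these bulk samples, fewer cells of a kind and less RNA per cell cannot be told apart. A gene is said to have risen or fallen at an adjusted p under 0.001 and a fold change of at least 2 (edgeR's 2-sided quasi-likelihood test, Benjamini-Hochberg adjustment over all genes tested).

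Melanocytes are pigment cells that come from the neural crest, the embryonic tissue that also gives rise to Schwann cells and peripheral neurons. *MITF*, the master transcription factor of the lineage, drives genes for the melanosome, the organelle in which melanin is made on amyloid fibres and then carried to the cell's edge. *SOX10* and *PAX3* act upstream of *MITF*. The CoREST complex was described as a corepressor that keeps neuronal genes silent outside neurons, and it removes acetyl and methyl marks from histones at the genes it binds.

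Corin moved genes at every level of expression, and the shares that rose and fell varied with that level. Over all genes tested, 2993 rose (20.6%) and 1733 fell (11.9%). Among the well-expressed genes 485 rose (11.5%) and 456 fell (10.8%), and with scaling to library size alone 427 rose and 571 fell, so the balance among them depends on the scaling. Below 1 CPM, 47.4% of 549 genes rose and 6.19% fell. From 50 to 200 CPM, 11.6% rose and 11.4% fell. At 1000 CPM and above, 17 of 94 genes rose and 0 fell by edgeR. Of the rises, 1305 were in genes that reached the count minimum with corin and not with DMSO, which had to differ to be tested. Among the 12767 genes that reached it with DMSO, 1688 rose (13.2%) and the same 1733 fell. For lists whose members nearly all reached it with DMSO, 13.2% is the nearer share for rises. A change of less than 2-fold was estimated for 3292 of the well-expressed genes, and for 2359 it was less than 1.5-fold.

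**Figure D1:**
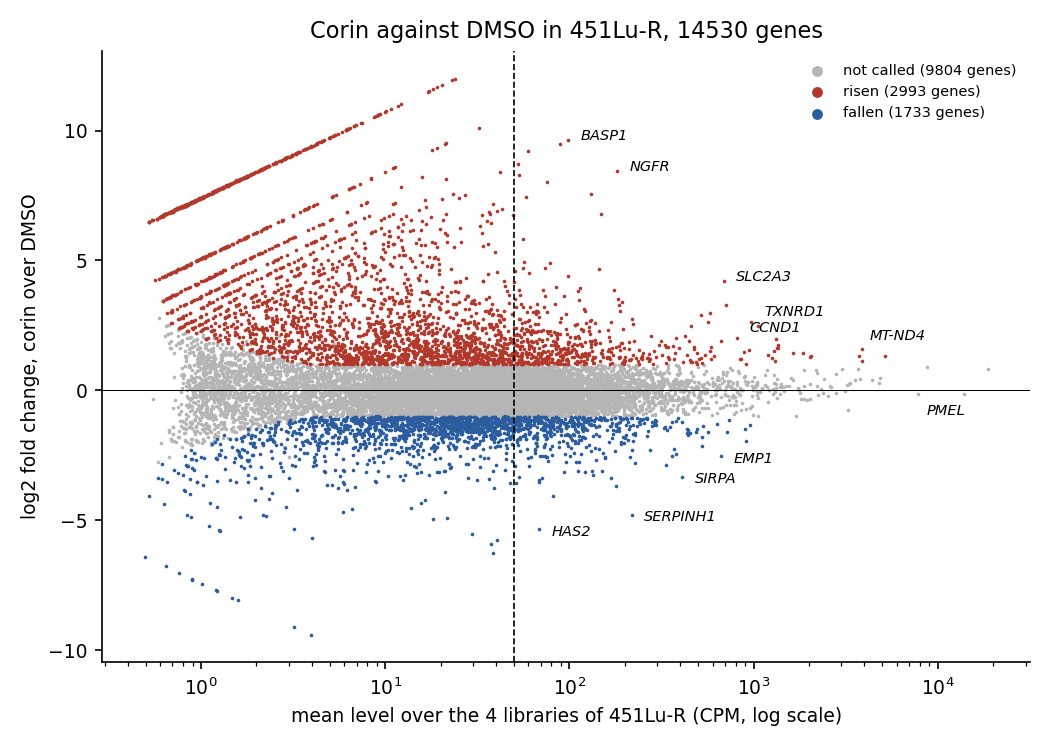
Each point is 1 of the 14530 genes tested in 451Lu-R, with its mean level over the 4 libraries (CPM, log scale) on the horizontal axis and its log2 fold change, corin over DMSO, on the vertical axis. Red points are the 2993 genes that rose, blue points the 1733 that fell, grey points those not called, and the dashed line marks 50 CPM, right of which 485 genes rose and 456 fell.

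The 12 well-expressed genes that rose most were mostly genes near silence with DMSO. *BASP1*, *CD24*, *BAIAP3*, *STC1*, *NGFR*, *KIF1A*, *FSCN1* and *HPCAL4* did not reach the count minimum with DMSO and were tested and well-expressed only through their corin level, so they had to differ. *BASP1*, a membrane protein of growing axons encoded at chr5:17065598-17276843 (GRCh38), had 0.354 and 0.100 CPM with DMSO and 197 and 198 CPM with corin (log2 fold change 9.64 ± 0.13 SE, adjusted p = 2.39e-22). *CD24*, a glycosylated surface protein, had 0.266 and 0.200 CPM with DMSO and 176 and 180 CPM with corin, at least 632-fold higher when DMSO is set to the floor of 3 counts per library. *NGFR*, the low-affinity neurotrophin receptor and a marker of neural crest cells, had 1.24 and 0.801 CPM with DMSO and 367 and 360 CPM with corin (8.44 ± 0.08, adjusted p = 4.48e-24). The groups were separated by more than 100-fold for these genes. *KIF1A*, the motor that carries synaptic vesicle precursors along axons, went from 0.442 and 0.200 to 107 and 106 CPM (*KIF1A* log2 fold change 8.29). *FSCN1*, which bundles actin in filopodia, went from 0.619 and 0.501 to 150 and 150 CPM (8.03). *PODXL*, a sialomucin of the cell surface, went from 1.24 and 1.502 to 261 and 260 CPM (7.57). *CDKN1A*, the inhibitor of cyclin-dependent kinases known as p21, rose with a log2 fold change of 6.77. *BAIAP3* and *STC1*, at the DMSO floor as *CD24* was, were at least 421-fold and 371-fold higher. The others were *HPCAL4*, *SEPTIN3* and *MRC2*, with log2 fold changes of 7.43, 5.83 and 4.95. *BASP1*, *NGFR*, *CDKN1A* and *BAIAP3* overlap genes on the opposite strand. The strand setting of the counting is not given in the sources used here, so reads of such a pair may be shared.

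The 12 well-expressed genes that fell most included enzymes and adaptors of several kinds. *HAS2*, which makes hyaluronan for the extracellular matrix, had 133 and 135 CPM with DMSO and 2.98 and 3.62 CPM with corin (log2 fold change -5.35 ± 0.09 SE, adjusted p = 1.24e-20). *SERPINH1*, the collagen chaperone HSP47 of the endoplasmic reticulum, went from 429 and 415 to 16.1 and 14.5 CPM (-4.78 ± 0.05, adjusted p = 1.42e-23). *NFATC2*, a calcium-regulated transcription factor, went from 152 and 157 to 9.12 and 9.42 CPM (-4.06). Each was more than 10-fold lower in every corin library, and replicates stayed close. *SIRPA*, the receptor for the CD47 signal, had 738 and 748 CPM with DMSO, the highest DMSO level of the 12, and 69.1 and 78.8 CPM with corin (-3.33). *ERBB3*, the neuregulin receptor of neural crest cells, went from 243 and 243 to 26.4 and 24.2 CPM (-3.26). The remaining falls were *SLC24A5* (-3.68), *SGCD* (-3.56), *ARHGAP31* (-3.51), *ITPKB* (-3.44), *BNC2* (-3.38), *HDGF* (-3.36) and *JADE2* (-3.31). *HAS2*, *SIRPA* and *SLC24A5* overlap genes on the opposite strand.

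Measured as counts gained or lost, the change was led by other genes. *MT-RNR2*, the mitochondrial large ribosomal RNA, had 13370 and 13710 CPM with DMSO and 23920 and 23700 CPM with corin, a log2 fold change of 0.81 that stayed under the 2-fold limit. *ACTG1*, cytoplasmic gamma actin, had 6050 and 6150 CPM with DMSO and 11300 and 11370 CPM with corin (0.89). *MT-CO1* and *MT-ND4*, subunits of respiratory complexes encoded in mitochondria, and *HSP90AA1*, the inducible cytosolic HSP90, made up the rest of the 5 largest gains. *HSP90AA1* rose from 2127 and 2153 to 5334 and 5280 CPM (1.31 ± 0.02, adjusted p = 7.97e-23). The largest losses in level included those of *PABPC1*, which binds poly(A) tails, *EEF1A1*, the translation elongation factor, *EIF4A1*, the helicase of translation initiation, and *EMP1*. Of these 4 *EMP1* passed the fold limit. *EMP1*, an epithelial membrane protein, had 1143 and 1120 CPM with DMSO and 197 and 192 CPM with corin (-2.54). *PABPC1* had 4043 and 4084 CPM with DMSO and 2429 and 2409 CPM with corin (-0.75). *EIF4A1* had 2230 and 2273 CPM with DMSO and 1129 and 1141 CPM with corin (-0.99), and it passed the limit when fold changes were scaled to library size alone (log2 fold change -1.09). *ACTG1*, *EEF1A1* and *PABPC1* have processed copies elsewhere in the genome, which can share reads. *ACTG1*, *HSP90AA1* and *EEF1A1* overlap genes on the opposite strand.

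The melanocytic label was checked with 9 markers, and all were detected in 451Lu-R. *PMEL*, the protein of the melanosome's amyloid fibres, had 8128 and 8176 CPM with DMSO and 7441 and 7515 CPM with corin (log2 fold change -0.12). *DCT*, dopachrome tautomerase, had 1607 and 1615 CPM with DMSO and 2786 and 2751 CPM with corin (0.78), one of the 2 markers with a higher estimate. The other was *PAX3* (0.68). *MLANA*, a melanosomal membrane protein, had 1099 and 1144 CPM with DMSO and 694 and 689 CPM with corin (-0.70). *TYR*, tyrosinase, the enzyme that starts melanin synthesis, had 434 and 444 CPM with DMSO and 337 and 342 CPM with corin (-0.37). *TYRP1*, the tyrosinase-related enzyme, was near the lower end of detection, with 4.60 and 4.91 CPM with DMSO and 3.16 and 3.31 CPM with corin. These 6 did not pass the 2-fold limit, while *MITF* and *SOX10* fell (-1.37 and -1.599). Pigment itself was not measured. The summed level of the 9 markers was 13230 and 13340 CPM with DMSO and 12200 and 12250 CPM with corin. *PMEL*, *SOX10* and *TYRP1* overlap genes on the opposite strand.

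Markers of other cell types were low and partly moved with corin. The 9 endothelial markers in the table summed to 12.5 and 16.1 CPM with DMSO and 130 and 129 CPM with corin, mainly from *FLT1* and *KDR*, receptors for VEGF, while *PECAM1* had 0 counts in every library. The 10 fibroblast markers summed to 52.3 and 49.1 CPM with DMSO and 165 and 161 CPM with corin, from *LUM* and *COL1A1*, and *COL3A1* had 0 counts. The leukocyte markers summed to 63.3 and 65.7 against 96.3 and 98.2 CPM, nearly all from *CD68*, and *PTPRC*, the leukocyte common antigen, had at most 3 counts. The keratinocyte and epithelial markers summed to 115 and 116 against 105 and 102 CPM, and *IVL* had 0 counts. Of the 6 tested 4 rose and 1 fell, where 20.6% and 11.9% of all genes did. *KRT14* and *TP63*, which rose, reached the count minimum only with corin, so they had to differ. Among the 4 that reached it with DMSO 2 rose, to be read against 13.2%. *KRT18* had 263 and 204 counts with DMSO and 705 and 634 under corin, while *ESRP1*, a splicing factor of epithelia, had 754 and 710 with DMSO and 105 and 64 under corin. A count of 0 limits the gene to 3 counts in a library, for counting error alone. The part of these markers in the results below was not tested. *COL1A1*, *CD68* and *KRT18* overlap genes on the opposite strand.

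Promoters of melanosome genes are shown because the letters CATGTG form the core of the M-box, to which MITF binds as textbook background. The windows are RefSeq's (GRCh38.p14), 250 bases before to 50 after a gene's start, taking the first window listed for a gene, and CATGTG or its reverse complement is in capitals. *SLC24A5*, an ion exchanger of the melanosome that fell most in its list, and *TSPAN10*, a tetraspanin that fell, are set beside *TYR* and *TYRP1*, which did not pass the 2-fold limit. The window of *SLC24A5* is chr15:48120740-48121039, that of *TSPAN10* chr17:81642055-81642354, that of *TYR* chr11:89177625-89177924 and that of *TYRP1* chr9:12693135-12693434, all on the plus strand.
SLC24A5: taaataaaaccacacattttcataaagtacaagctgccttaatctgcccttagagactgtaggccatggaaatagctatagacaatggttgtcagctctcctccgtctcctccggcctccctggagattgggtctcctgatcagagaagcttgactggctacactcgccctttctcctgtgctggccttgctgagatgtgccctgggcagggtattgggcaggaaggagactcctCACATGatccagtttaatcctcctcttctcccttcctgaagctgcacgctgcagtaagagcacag
TSPAN10: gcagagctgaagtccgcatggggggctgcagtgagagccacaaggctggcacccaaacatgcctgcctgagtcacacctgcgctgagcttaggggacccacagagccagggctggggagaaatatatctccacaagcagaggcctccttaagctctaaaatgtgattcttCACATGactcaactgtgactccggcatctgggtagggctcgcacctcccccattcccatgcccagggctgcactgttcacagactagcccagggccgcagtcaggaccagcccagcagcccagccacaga
TYR: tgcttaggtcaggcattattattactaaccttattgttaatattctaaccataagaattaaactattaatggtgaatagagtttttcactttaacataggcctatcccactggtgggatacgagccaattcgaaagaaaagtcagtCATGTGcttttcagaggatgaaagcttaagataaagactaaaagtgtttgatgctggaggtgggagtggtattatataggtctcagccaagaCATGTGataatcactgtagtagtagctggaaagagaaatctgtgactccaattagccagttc
TYRP1: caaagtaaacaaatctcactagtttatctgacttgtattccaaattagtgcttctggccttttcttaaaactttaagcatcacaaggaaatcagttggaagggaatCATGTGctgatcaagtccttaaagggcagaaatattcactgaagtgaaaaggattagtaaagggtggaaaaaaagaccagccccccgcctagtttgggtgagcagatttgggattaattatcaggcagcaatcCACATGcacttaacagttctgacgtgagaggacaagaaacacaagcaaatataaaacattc

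*SLC24A5* and *TSPAN10* hold 1 match each, and *TYR* and *TYRP1* hold 2 each, so genes with and without a called fall share the motif. *GPR143* and *TRPM1*, which fell, hold matches too. The windows of *RAB27A*, *HPS4*, *HPS5*, *MLPH*, *MREG*, *MYO5A* and *CAPN3*, which fell as well, lack the motif CATGTG. A window was found for 29 of the 34 melanosome genes, and 10 of these windows (34.5%) hold it on either strand, against 11.2% of 27305 windows, 1 per gene symbol, and 6.2% of the 3482 well-expressed genes with a window. Among well-expressed genes that fell, 36 of 381 windows (9.45%) hold CATGTG and 66 (17.3%) hold CACGTG, a separate motif that is in 11.9% of windows of well-expressed genes and 7.43% of the 27305 windows. These matches describe letters, not binding.

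A part of the genes that build and move melanosomes fell, while the melanin enzymes stayed within 2-fold. Of the 34 genes of the melanosome and melanin list, 13 fell (38.2%, against 11.9% of all genes tested) and 1 rose (2.94%, against 20.6%), with a median log2 fold change of -0.64 against 0.0322 over all genes tested. All 34 reached the count minimum with DMSO, where 13.2% of genes rose. *SLC24A5* had 335 and 326 CPM with DMSO and 24.4 and 27.6 CPM with corin (-3.68 ± 0.05 SE, adjusted p = 2.28e-22). *RAB27A*, the small GTPase that ties melanosomes to the actin motor, had 358 and 369 CPM with DMSO and 61.7 and 60.9 CPM with corin (-2.56 ± 0.04, adjusted p = 8.48e-22). *HPS4*, a subunit of a complex for lysosome-related organelles, had 300 and 290 CPM with DMSO and 56.6 and 62.9 CPM with corin (-2.31). *TSPAN10* had 699 and 668 CPM with DMSO and 214 and 227 CPM with corin (-1.64). For these 4 genes every corin library lay below every DMSO library by more than 2-fold. The 1 member that rose was *MFSD12*, a cystine transporter of lysosomes and melanosomes (1.19), which is named after its value was seen. *RAB27A*, *HPS4* and *MFSD12* overlap genes on the opposite strand.

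Regulators of the lineage moved in both directions. Of 23 lineage transcription factors tested, 9 fell (39.1%, against 11.9% of all genes) and 6 rose (26.1%, near the 20.6% of all genes), and of the 12 that were well-expressed 7 fell and 1 rose. Among the 20 that reached the count minimum with DMSO 3 rose, to be read against 13.2%, and the other rises had to differ. *IRF4*, a partner of MITF at the tyrosinase gene, had 71.8 and 74.2 CPM with DMSO and 5.97 and 4.66 CPM with corin (-3.76 ± 0.10 SE, adjusted p = 1.83e-17). *SOX6*, a SOX factor of the neural crest lineages, had 218 and 216 CPM with DMSO and 23.9 and 26.3 CPM with corin (-3.12). *ZEB2*, a zinc-finger factor that the study links to the differentiated melanoma state, had 146 and 146 CPM with DMSO and 34.5 and 41.4 CPM with corin (-1.95). These 3 lost a larger part of their level than *MITF* did, which had 754 and 778 CPM with DMSO and 297 and 296 CPM with corin. *SNAI1*, a repressor of epithelial genes, rose from 15.9 and 15.6 to 78.5 and 75.5 CPM (2.29 ± 0.08, adjusted p = 4.66e-16), and *ZEB1*, the relative of *ZEB2*, rose from 5.93 and 7.21 to 18.5 and 21.1 CPM (1.59). The list's median was -0.14, and it was 0.132 when genes with few counts were not filtered out. *ZEB2* and *ZEB1* overlap genes on the opposite strand.

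**Figure D2:**
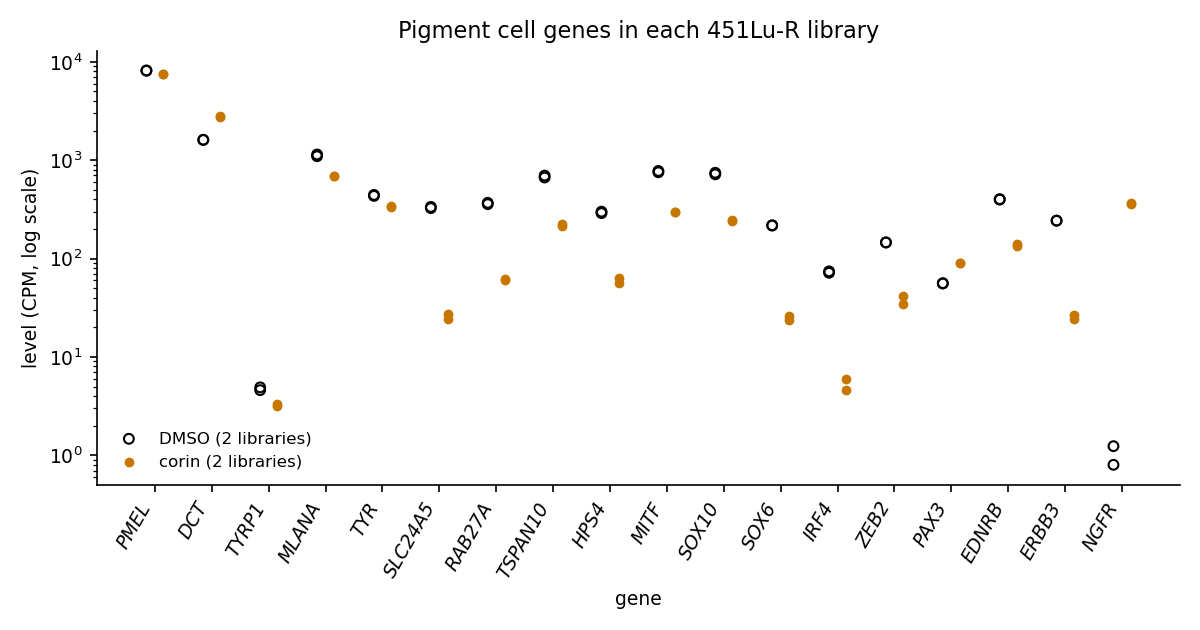
Levels (CPM, log scale) of 18 pigment cell genes in each 451Lu-R library, with open circles for the 2 DMSO libraries and filled circles for the 2 corin libraries. *PMEL* and *DCT* stay within 2-fold of their DMSO level, *SLC24A5*, *IRF4*, *SOX6* and *ERBB3* lie more than 8-fold below it, and *NGFR* rises from about 1 CPM to over 360.

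Receptors and antigens of melanocytes split in the same way. Of 29 tested, 10 fell (34.5%, against 11.9% of all genes) and 4 rose (13.8%, against 20.6%), with a median of -0.37. Among the 27 that reached the count minimum with DMSO 2 rose, to be read against 13.2%. *FXYD3*, a regulator of the sodium pump, went from 166 and 169 to 19.3 and 18.9 CPM (-3.13), and *GAPDHS*, a glycolytic isozyme, went from 56.8 and 54.4 to 9.65 and 9.93 CPM (-2.51). *EDNRB*, the endothelin receptor that melanoblasts need, had 402 and 398 CPM with DMSO and 139 and 133 CPM with corin (-1.55). All 3 fell beyond the spread of their replicates, while *CD63* (-0.31) and *APOD* (0.15), the members with the most counts, stayed within 2-fold. Of 20 Schwann and myelin genes 9 rose (45%) and 3 fell (15%), with *NGFR* and *NES* among the rises and *ERBB3* among the falls. Among the 17 that reached the count minimum with DMSO 6 rose, and *NGFR* did not reach it. *NES*, the intermediate filament of neural progenitors, rose from 34.0 and 35.1 to 144 and 128 CPM (1.98 ± 0.06 SE, adjusted p = 3e-16). *L1CAM*, a neural adhesion molecule, had 852 and 846 CPM with DMSO and 866 and 858 CPM with corin (0.02, adjusted p = 0.287). *GAPDHS*, *EDNRB*, *CD63* and *L1CAM* overlap genes on the opposite strand.

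Neuronal genes rose as a group, most of them from little or no expression. Of 57 genes of synapses and neurons 45 were tested and 39 rose (median 3.07, and 2.92 with genes at the DMSO floor set to their lower bound), but only 23 of the 45 reached the count minimum with DMSO. Of these 23, 18 rose, a share to be read against 13.2%, with no fall called by edgeR or by DESeq2 and 2 of the 45 lower at an unadjusted p under 0.05. *SYN1*, which coats synaptic vesicles, had 0.973 and 0.801 CPM with DMSO and 97.1 and 99.3 CPM with corin (6.76 ± 0.13 SE, adjusted p = 6.84e-20). *NRXN2*, a presynaptic adhesion protein, had 0.177 and 0.300 CPM with DMSO and 43.0 and 38.4 CPM with corin, at least 144-fold higher. *SYN1* and *NRXN2* are outside the 23, since they reached the count minimum only with corin and so had to differ. The rise extended to genes that were well-expressed at the outset. *VGF*, a secreted neuropeptide precursor, went from 125 and 118 to 947 and 888 CPM (2.92 ± 0.03, adjusted p = 6.46e-23), and *TUBB3*, the neuronal beta tubulin, from 187 and 192 to 702 and 700 CPM (1.89). The list as a whole took 0.0808% and 0.0796% of counts with DMSO and 0.353% and 0.349% with corin. *SYN1* overlaps a gene on the opposite strand.

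Genes that deacetylase inhibitors are known to induce rose as well. Of 16 tested 13 rose (median 2.40), 11 of them among the 14 that reached the count minimum with DMSO. *CLU*, the secreted chaperone clusterin, went from 0.354 and 0.701 to 79.6 and 73.7 CPM (7.18). It reached the count minimum only with corin, so it had to differ. *DHRS2*, a short-chain dehydrogenase, went from 9.11 and 9.71 to 141 and 130 CPM (3.85) and *MT1X*, a metallothionein, from 11.6 and 10.4 to 137 and 136 CPM (3.63). *GSN*, gelsolin, the member with the most counts, had 349 and 364 CPM with DMSO and 297 and 310 CPM with corin (-0.24). Of 12 CoREST complex genes 3 rose (25%, near the 20.6% of all genes), with *GSE1* at 2.51 and *ZNF217* at 1.02. *HDAC1* had 161 and 168 CPM with DMSO and 239 and 236 CPM with corin (0.53), and *KDM1A*, which encodes LSD1, had 200 and 201 CPM with DMSO and 262 and 260 CPM with corin (0.38). *ZNF217* was just past the fold limit and did not pass it when scaled to library size (0.92). *GSN*, *GSE1* and *ZNF217* overlap genes on the opposite strand.

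Cadherin and junction genes, integrins and matrix genes rose in larger shares than the 20.6% of all genes, and cytoskeleton genes in shares closer to it. Of 25 cadherin and junction genes tested 18 rose, 8 of them among the 15 that reached the count minimum with DMSO, where the median was 1.04. *CADM1*, an immunoglobulin-type adhesion molecule, had 24.1 and 24.2 CPM with DMSO and 215 and 215 CPM with corin (3.15 ± 0.05 SE, adjusted p = 3.5e-21), and *ALCAM* had 26.5 and 26.3 CPM with DMSO and 220 and 215 CPM with corin (3.04). In both, every corin library lay far above every DMSO library. Of 25 integrin and laminin genes 10 rose and 1 fell. Among the 23 that reached the count minimum with DMSO 8 rose, to be read against 13.2%. The rises were led by *ITGB4* (5.71), which reached the minimum only with corin and so had to differ, and *ITGA3* (3.33). *ITGA6*, a laminin receptor chain, rose from 224 and 221 to 510 and 520 CPM (1.21). Of 33 collagen and matrix genes 13 rose and 4 fell, and among the 28 that reached the minimum with DMSO 8 rose. *COL1A1*, the main chain of type I collagen, rose from 0.531 and 0.701 to 40.4 and 43.0 CPM (6.06). It reached the minimum only with corin, so it had to differ. *SERPINH1*, its chaperone, fell in the same libraries. *SPARC*, the matrix gene with the most counts, had 1682 and 1689 CPM with DMSO and 2717 and 2721 CPM with corin (0.69). Of 37 actin and intermediate filament genes 10 rose (27%) and 3 fell (8.11%). *LMNB1*, a nuclear lamin, fell from 131 and 134 to 19.6 and 20.3 CPM (-2.73). Among 16 tubulin genes 4 rose (25%) and 2 fell (12.5%). *TUBA1A* rose from 150 and 162 to 967 and 978 CPM (2.64), while *TUBA1B*, the alpha tubulin of dividing cells, had 1444 and 1474 CPM with DMSO and 1313 and 1318 CPM with corin (-0.15). Alpha tubulins are near-identical and can share reads. *ITGA6*, *SPARC*, *TUBA1A* and *TUBA1B* overlap genes on the opposite strand.

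**Figure D3:**
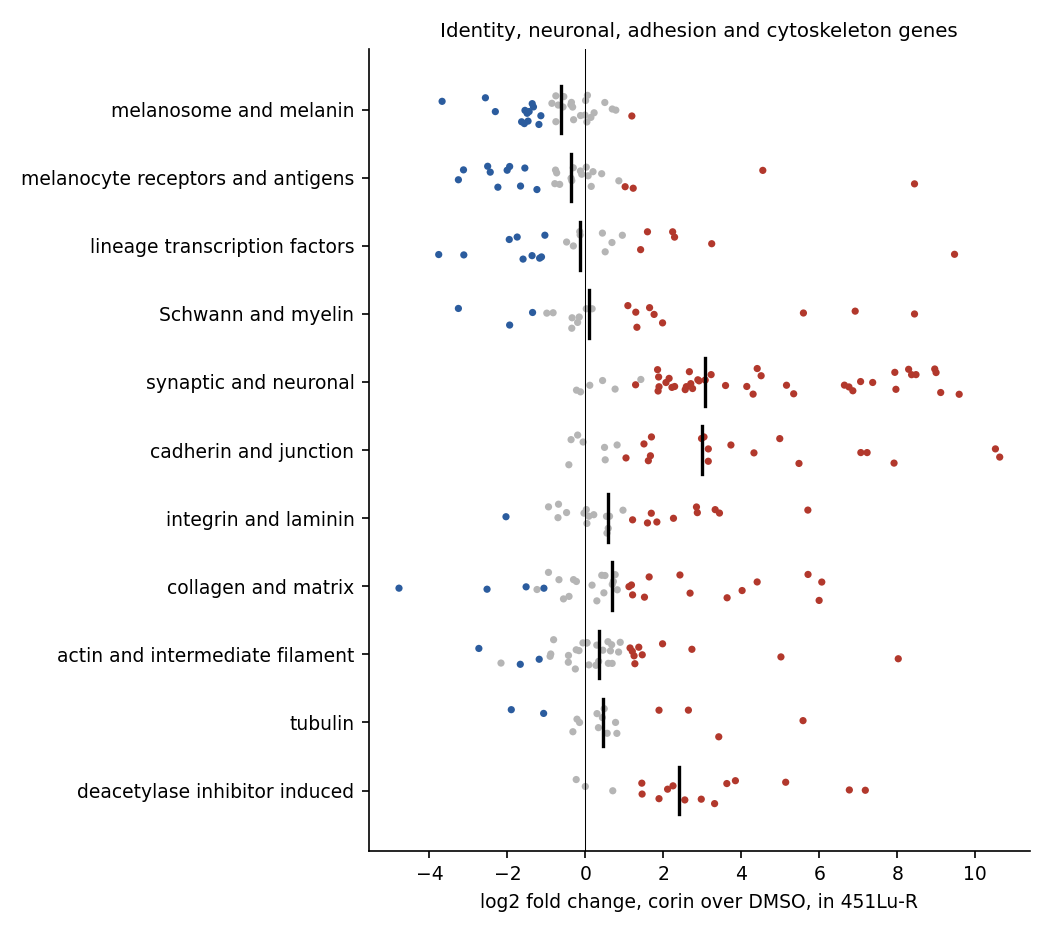
Log2 fold change, corin over DMSO, in 451Lu-R of every tested gene of 11 lists, with red points for genes that rose, blue for genes that fell, grey for those not called and a black bar at the median. The synaptic and neuronal list has its median at 3.07, and the melanosome and melanin list at -0.64.

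Cell division genes fell, and the mitotic ones fell furthest. Of 67 mitosis genes 55 fell (median -1.54), against 11.9% of all genes tested, none rose by edgeR or by DESeq2, and 2 were higher at an unadjusted p under 0.05. *HMMR*, which organizes the spindle, had 77.2 and 81.8 CPM with DMSO and 10.2 and 8.90 CPM with corin (-3.05 ± 0.09 SE, adjusted p = 5.27e-17). *CENPA*, the histone of centromeres, had 49.7 and 53.1 CPM with DMSO and 8.25 and 8.17 CPM with corin (-2.64). *KIF20A*, a motor of cytokinesis, had 132 and 128 CPM with DMSO and 22.02 and 22.4 CPM with corin (-2.55). The groups were apart by more than 5-fold in each. *UBE2S*, a ubiquitin-conjugating enzyme of mitotic exit, had 211 and 208 CPM with DMSO and 231 and 225 CPM with corin (0.12). Of 47 replication genes 22 fell (median -0.97). *MCM7*, a subunit of the replicative helicase, had 264 and 264 CPM with DMSO and 64.5 and 68.2 CPM with corin (-1.995), *TYMS*, thymidylate synthase, had 185 and 179 CPM with DMSO and 54.7 and 51.1 CPM with corin (-1.78), and *RRM2*, the ribonucleotide reductase subunit, had 219 and 222 CPM with DMSO and 209 and 191 CPM with corin (-0.13). *KIF20A*, *MCM7* and *TYMS* overlap genes on the opposite strand.

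Mitotic promoters are shown for *CENPA* and *HMMR*, since promoters of late cell cycle genes are known for pairing CCAAT boxes with a cell cycle homology region, TTTGAA. The windows are chr2:26785806-26786105 for *CENPA* and chr5:163460382-163460681 for *HMMR* (RefSeq, GRCh38.p14, plus strand), with both motifs, on either strand, in capitals.
CENPA: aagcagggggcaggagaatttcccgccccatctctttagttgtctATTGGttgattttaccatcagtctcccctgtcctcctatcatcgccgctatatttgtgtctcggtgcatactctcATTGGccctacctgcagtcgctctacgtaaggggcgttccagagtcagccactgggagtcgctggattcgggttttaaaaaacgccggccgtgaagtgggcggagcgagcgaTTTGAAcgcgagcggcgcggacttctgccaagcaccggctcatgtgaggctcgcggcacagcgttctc
HMMR: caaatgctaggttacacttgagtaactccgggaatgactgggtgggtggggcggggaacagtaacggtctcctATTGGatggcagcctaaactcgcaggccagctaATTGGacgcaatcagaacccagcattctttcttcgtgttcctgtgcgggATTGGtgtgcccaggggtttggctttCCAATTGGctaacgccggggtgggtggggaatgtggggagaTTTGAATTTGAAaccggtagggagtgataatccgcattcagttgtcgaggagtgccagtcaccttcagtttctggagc

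*CENPA* holds 2 CCAAT boxes and 1 TTTGAA, and *HMMR* holds 5 and 2. *KIF20A*, which fell, holds 2 CCAAT boxes and no TTTGAA, while *CDK1* and *TOP2A*, which were not called, hold both. Genes with and without a called fall thus share the pair. Of the 57 mitosis genes with a window, 42 (73.7%) hold CCAAT, 36 (63.2%) hold TTTGAA and 28 (49.1%) hold both, against 35.7%, 15.4% and 6.08% of the 27305 windows and 38.3%, 8.44% and 3.96% of the 3482 windows of well-expressed genes. Among the 40 replication genes with a window, 1 (2.5%) held both. Among the well-expressed genes that fell, 32 of 381 windows (8.4%) held both. The check is void for the well-expressed genes that rose, of which 357 of 485 had a window, under the 80% needed, and nothing is read from their shares.

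The regulators of the cycle moved in both directions. Of 32 cyclins, kinases and inhibitors tested 8 rose (25%, near the 20.6% of all genes) and 11 fell (34.4%, against 11.9%). *CDKN1A* went from 2.48 and 2.90 to 295 and 293 CPM, and *CDKN2B*, the inhibitor p15, went from 33.0 and 30.6 to 189 and 179 CPM (2.53). *CCND1*, cyclin D1, rose from 330 and 314 to 1296 and 1303 CPM (2.01 ± 0.02 SE, adjusted p = 4.08e-23). Both inhibitors and cyclin D1 rose in the same libraries. *MYC*, the growth-promoting transcription factor, fell from 242 and 242 to 35.7 and 39.5 CPM (-2.69 ± 0.05, adjusted p = 1.36e-20), and *E2F3* fell from 44.7 and 41.8 to 6.58 and 8.48 CPM (-2.54). *GADD45A*, a sensor of growth arrest and DNA damage, rose from 15.04 and 15.7 to 122 and 110 CPM (2.93). *CCND1* and *MYC* overlap genes on the opposite strand.

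A part of the genes for making ribosomes and splicing RNA fell, against 11.9% of all genes tested. Of 50 ribosome biogenesis genes 20 fell (40%, median -0.87), including *UBTF*, the factor for ribosomal RNA transcription, from 108 and 102 to 18.4 and 17.5 CPM (-2.55), *MYBBP1A*, a nucleolar protein, from 176 and 179 to 31.9 and 35.1 CPM (-2.41) and *RRS1* (-2.13). The nucleolar genes with the most counts, *NPM1* (-0.08) and *NCL* (-0.07), were within 2-fold. Of 79 cytosolic ribosomal proteins, all well-expressed, no rise or fall was called by edgeR or DESeq2, and the median was 0.15, with 53 higher and 14 lower at an unadjusted p under 0.05. Of 45 core spliceosome genes 10 fell (22.2%, median -0.59). *U2AF2*, which recognizes the end of introns, went from 277 and 256 to 45.8 and 44.3 CPM (-2.56 ± 0.05 SE, adjusted p = 7.32e-20). *HNRNPA2B1* went from 859 and 844 to 284 and 280 CPM (-1.59), and *HNRNPA1* from 1361 and 1396 to 546 and 548 CPM (-1.33), both abundant RNA-binding proteins. Of 39 proteasome genes 6 fell (15.4%, near the share of all genes) and 1 rose (median -0.40), with *PSMB6* at -1.38 and *PSMB5*, a catalytic subunit, at -1.22. *UBTF*, *MYBBP1A* and *HNRNPA2B1* overlap genes on the opposite strand.

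Transcripts of the mitochondrial genome rose, and no nuclear gene of oxidative phosphorylation did by edgeR or DESeq2, with 19 of 77 higher and 40 lower at an unadjusted p under 0.05. The 16 mitochondrial genome genes tested took 2.98% and 3.07% of counts with DMSO and 5.89% and 5.86% with corin, and nuclear protein-coding genes took 95.4% and 95.3% against 92.5% and 92.5%. Of the 13 protein-coding ones 10 rose (median 1.33), and all 13 were higher at an unadjusted p under 0.05. *MT-ND4*, a subunit of complex I, rose from 1876 and 1957 to 5818 and 5816 CPM (1.602 ± 0.02 SE, adjusted p = 4.08e-23). *MT-CO1*, a subunit of complex IV, rose from 2889 and 2998 to 7386 and 7407 CPM (1.33). Of 77 nuclear genes of oxidative phosphorylation 2 fell, *CYC1* (-1.06) and *NDUFS3* (-1.12), and the median was -0.15, with *ATP5F1B*, a subunit of ATP synthase, at 711 and 714 CPM with DMSO and 804 and 807 CPM with corin (0.18). Of 75 mitochondrial ribosome genes 13 fell (17.3%, against 11.9% of all genes, median -0.55). Among them was *MRPL12*, from 155 and 156 to 67.2 and 69.2 CPM (-1.19). The libraries were made from polyA RNA. The share of mitochondrial reads is also used as a sign of RNA and cell quality, and its part in these results was not tested. *NDUFS3* overlaps a gene on the opposite strand.

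**Figure D4:**
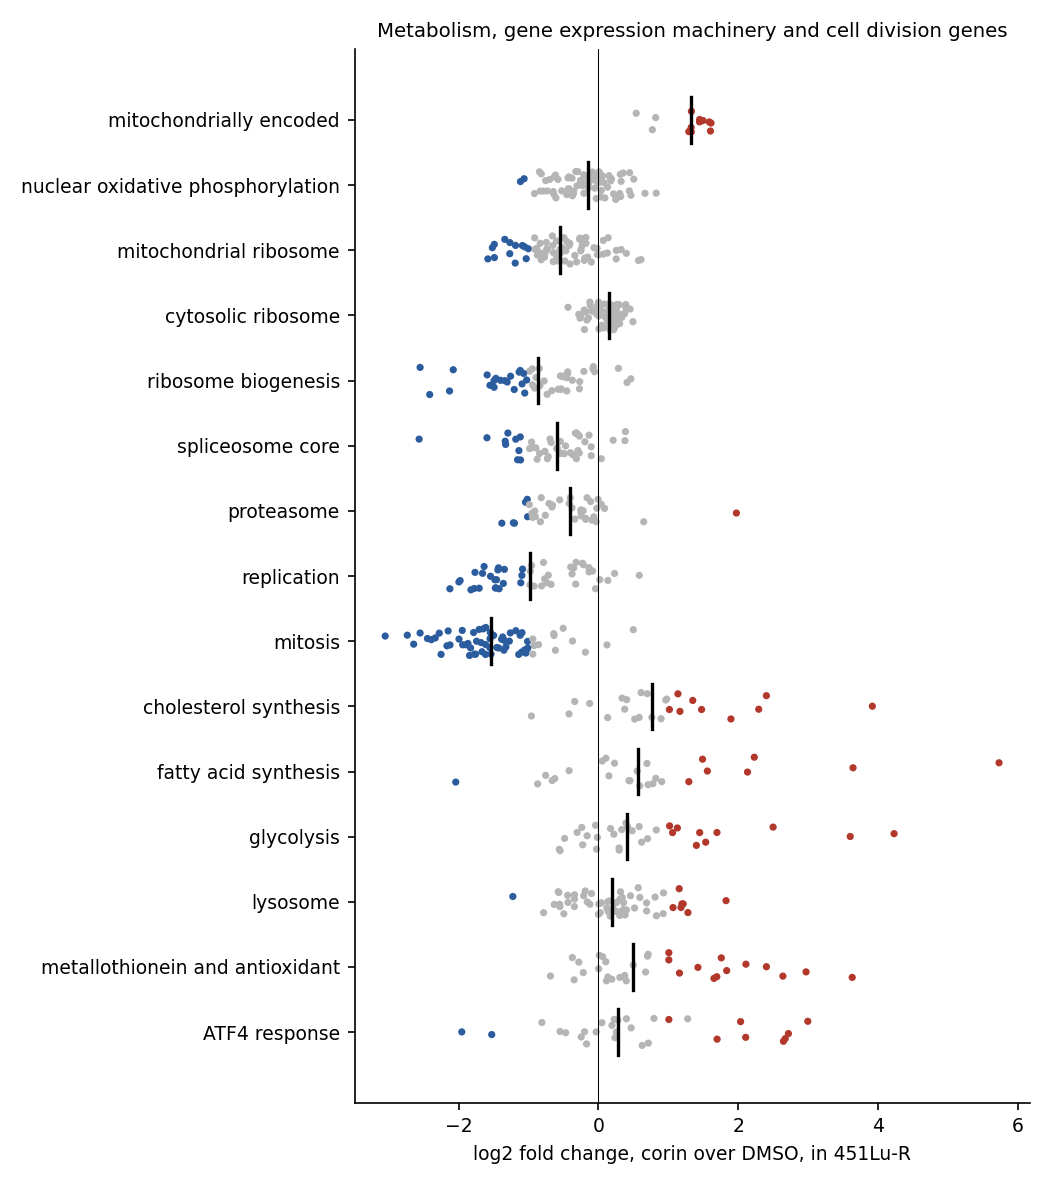
Log2 fold change, corin over DMSO, in 451Lu-R of every tested gene of 15 lists of metabolism, gene expression and cell division, colored as risen (red), fallen (blue) or not called (grey), with a black bar at the median. The mitochondrially encoded genes sit from 0.54 to 1.61, the cytosolic ribosomal proteins close to 0 and the mitosis genes from -3.05 to 0.50.

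Some genes of sugar uptake and lipid synthesis rose, while most members of these lists were not called, and 20.6% of all genes rose. Among genes that reached the count minimum with DMSO 13.2% rose. There 9 of 31 glycolysis, 9 of 25 cholesterol synthesis and 6 of 25 fatty acid genes rose. Of 32 glycolysis genes 10 rose (31.2%, median 0.41). *SLC2A3*, the high-affinity glucose transporter GLUT3, had 67.7 and 72.5 CPM with DMSO and 1326 and 1295 CPM with corin (4.23 ± 0.03 SE, adjusted p = 1.63e-25). *SLC16A3*, the lactate exporter MCT4, had 143 and 133 CPM with DMSO and 785 and 774 CPM with corin (2.50). *PKM*, pyruvate kinase, had 2420 and 2454 CPM with DMSO and 5346 and 5312 CPM with corin (1.13). Of the enzymes between the transporters, *PFKP* had 1.53 and *ENO1* 0.30 as log2 fold change. Of 25 cholesterol synthesis genes 9 rose (36%, median 0.76), with *DHCR7*, the last enzyme of the pathway, going from 276 and 286 to 1042 and 1047 CPM (1.89) and *INSIG1*, its feedback regulator, from 40.4 and 47.1 to 215 and 211 CPM (2.29). Of 26 fatty acid genes 7 rose (26.9%) and 1 fell (median 0.57). *ACSL3*, which activates fatty acids, went from 479 and 478 to 1398 and 1421 CPM (1.56) and *DGAT2*, which makes triglycerides, from 1.24 and 0.601 to 51.4 and 49.4 CPM (5.73). *DGAT2* reached the count minimum only with corin, so it had to differ. *FASN*, fatty acid synthase, had 1042 and 1026 CPM with DMSO and 1546 and 1569 CPM with corin (0.59). *SLC16A3*, *ENO1* and *DGAT2* overlap genes on the opposite strand.

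Antioxidant genes rose in a larger share than the 20.6% of all genes, and chaperone, lysosome and autophagy genes in smaller shares. All tested genes of these lists reached the count minimum with DMSO, so 13.2% is the nearer share to read against. The antioxidant share was above it too, and the chaperone and lysosome shares were near it. Of 33 metallothionein and antioxidant genes 13 rose (39.4%, median 0.50). *TXNRD1*, thioredoxin reductase, had 266 and 274 CPM with DMSO and 1669 and 1688 CPM with corin (2.64 ± 0.02 SE, adjusted p = 5.68e-25), *SRXN1*, sulfiredoxin, had 130 and 133 CPM with DMSO and 1043 and 1013 CPM with corin (2.97), and *NQO1*, a quinone reductase, had 612 and 636 CPM with DMSO and 2108 and 2108 CPM with corin (1.76). These are known targets of the NRF2 pathway, and each rose by more than 3-fold. *FTH1*, ferritin heavy chain, had 4021 and 4091 CPM with DMSO and 5729 and 5730 CPM with corin (0.50). Of 29 ATF4 response genes 8 rose (27.6%) and 2 fell, among them *ASNS*, asparagine synthetase (2.67), *DDIT4*, an mTORC1 inhibitor (2.65), and *CEBPB* (2.72). Of 58 lysosome genes 7 rose (12.1%) and 1 fell (median 0.19), with *CTSB*, cathepsin B, going from 507 and 512 to 1173 and 1186 CPM (1.21). Of 33 autophagy genes 3 rose (9.09%) and 2 fell, and *SQSTM1*, the cargo receptor p62, rose from 674 and 662 to 1728 and 1752 CPM (1.38). Of 41 cytosolic chaperones 7 rose (17.1%) and 2 fell, with *HSPH1* falling from 308 and 314 to 99.1 and 91.6 CPM (-1.70) and *BAG3* rising from 43.3 and 45.0 to 132 and 137 CPM (1.61). *NQO1*, *FTH1*, *CEBPB* and *SQSTM1* overlap genes on the opposite strand.

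Signalling genes included several early response genes that rose. Of 27 ERK output genes 11 rose (40.7%, against 20.6% of all genes) and 4 fell (14.8%, against 11.9%), including *CCND1* and *VGF* among the rises and *MYC* among the falls, and *PHLDA2* rose from 9.73 and 8.01 to 52.99 and 52.98 CPM (2.57). Of 17 AP-1 genes 8 rose (47.1%), with *ATF3* at 2.99, *JUNB* at 2.15, *JUN* at 1.96 and *FOS* at 1.72. *FOS* had 39.8 and 41.7 CPM with DMSO and 137 and 130 CPM with corin, and *JUN* had 20.2 and 22.5 CPM with DMSO and 80.7 and 84.8 CPM with corin. Of 28 BCL2 family genes tested 4 rose and 4 fell (14.3% each, near the shares of all genes). *PMAIP1*, the pro-apoptotic NOXA, rose from 7.96 and 7.41 to 63.2 and 71.9 CPM (3.13), *BCL2L11*, the pro-apoptotic BIM, from 33.0 and 30.7 to 137 and 141 CPM (2.12), and *BCL2A1*, an antiapoptotic target of MITF, fell from 65.7 and 76.4 to 23.8 and 20.7 CPM (-1.66). *MCL1*, another antiapoptotic gene, had 158 and 159 CPM with DMSO and 322 and 309 CPM with corin, a log2 fold change of 0.997 that fell just short of the limit. *JUNB*, *BCL2L11* and *MCL1* overlap genes on the opposite strand.

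Of the immune genes tested, 8 of 20 MHC class I, 4 of 31 interferon response and 0 of 10 MHC class II genes were well-expressed. Of 10 MHC class II genes tested 9 rose, but 2 of the 10 reached the count minimum with DMSO and 5 had no more than 3 counts in either DMSO library, and *HLA-DMB* rose from 0 and 0.200 to 24.6 and 23.8 CPM, at least 85.9-fold. Of 31 interferon response genes 13 rose (41.9%, against 20.6% of all genes). Of 20 MHC class I genes 6 rose (30%) and 2 fell (10%, against 11.9%), with *NLRC5*, their transactivator, at 3.47 and *TAPBP*, tapasin, at -1.45. Of 26 histone genes 7 rose (26.9%), with *H2BC21* at 2.10, and 1 fell, the centromere histone *CENPA*. HLA and histone genes are families whose members can share reads. The libraries were made from polyA RNA, and the part of that selection in the histone values was not tested.

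The response of 451Lu-R was set against that of 1205Lu-R to show where it differed, with an interaction term on the 8 libraries. Of 16062 genes, 1138 responded more positively in 451Lu-R (7.09%) and 921 less (5.73%). When scaled to library size alone the numbers were 845 and 1299. Among the well-expressed genes of 451Lu-R 548 (12.9%) differed, 312 higher and 236 lower, while 427 were called the same way in both lines, 211 risen and 216 fallen. *SERPINH1* was called as fallen in each line. Its log2 fold change was -4.78 here and -4.77 in the other line, and the difference was 0.02 ± 0.13 (SE, adjusted p = 0.94).

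The 5 well-expressed genes with the largest positive interaction were genes already on in 1205Lu-R. Under DMSO *FSCN1* held 17182 and 16420 counts in 1205Lu-R, and under corin 15225 and 17560, so its rise in 451Lu-R gave a difference of 8.10 (adjusted p = 2.39e-20). *KIF1A* (7.22), *BASP1* (7.11), *STC1* (6.53) and *PODXL* (6.41) rose in both lines, and in 1205Lu-R they had 241 to 3057 counts per library with DMSO. With at most 7 counts in a DMSO library of 451Lu-R for *FSCN1*, *KIF1A*, *BASP1* and *STC1*, the sizes of these differences are uncertain too. The 5 with the most negative interaction were near silent there. *IGSF11*, an adhesion molecule, had 0 counts in both DMSO libraries of 1205Lu-R and 37 and 44 with corin, while it fell in 451Lu-R (log2 fold change -2.11, interaction -10.43). *EDNRB* had 0 and then 38 and 49 counts there (interaction -9.98), *AIF1L* 0 and then 99 and 117 (-9.96), *SLAIN1* 0 and then 214 and 250 (-8.09) and *ERBB3* 3 and 2 and then 52 and 70 (-7.76). As none of these 5 genes exceeded 3 counts in a DMSO library of 1205Lu-R, the sizes of the differences are uncertain. *SLAIN1* rose in 451Lu-R too (2.75), and *AIF1L* was within 2-fold there (-0.22).

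Of the 4189 well-expressed genes tested in both lines, 22 were called in opposite directions with the interaction called as well. Of the 22, 17 fell here while rising in 1205Lu-R. They include *MITF*, *EDNRB*, *ERBB3*, *TSPAN10*, *MREG*, a melanosome protein, *GPM6B*, a neural membrane glycoprotein, and *SNAI2*, a neural crest repressor. The last 3 are named after their values were seen. *EDNRB*, *ERBB3* and *IGSF11*, also among the 17, were near silent with DMSO in 1205Lu-R. They were tested there only through their corin counts, so they had to rise. *SNAI2* went from 225 and 224 to 66.9 and 66.4 CPM in 451Lu-R (-1.75 ± 0.04 SE, adjusted p = 7.23e-19) and had a log2 fold change of 1.24 in 1205Lu-R. *GPM6B* went from 257 and 256 to 105 and 112 CPM (-1.24) and had 3.75 in 1205Lu-R. The interaction had an SE of 0.305 for *GPM6B* and 0.31 for *TSPAN10*, near the 0.301 of *ERBB3*, against 0.0643 for *SNAI2*. The sizes of the 1205Lu-R changes of *GPM6B* and *TSPAN10* are thus less certain. The 5 with the reverse pattern were *NES*, *WIPI1*, *FZD1*, *LRIG1* and *AHNAK*, whose log2 fold changes were 1.98, 1.45, 1.13, 1.12 and 1.08 here, and in the other line -1.57, -1.52, -1.07, -1.45 and -1.84. *FZD1*, *LRIG1* and *AHNAK* are likewise named after their values were seen. *AHNAK*, a large scaffold protein, had 292 and 303 CPM with DMSO and 636 and 622 CPM with corin. *GPM6B*, *WIPI1* and *LRIG1* overlap genes on the opposite strand.

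The fall of mitotic genes was larger in 451Lu-R. Of the 67 mitosis genes 55 fell here against 10 in 1205Lu-R, where 9% of genes fell, and the interaction was called as lower in 451Lu-R for 35, against 5.73% of genes, with 3 higher at an unadjusted p under 0.05. *HMMR* had an interaction of -3.13, *KIF20A* of -2.73 and *CENPA* of -1.99. The replication genes did not separate the lines in that way: 22 fell in each, and 2 differed, both higher in 451Lu-R. *MCM7* had a log2 fold change of -2.14 in 1205Lu-R. Of the 34 melanosome genes 10 differed toward lower in 451Lu-R and 1 toward higher, and 23 of the 34 could be tested within 1205Lu-R.

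**Figure D5:**
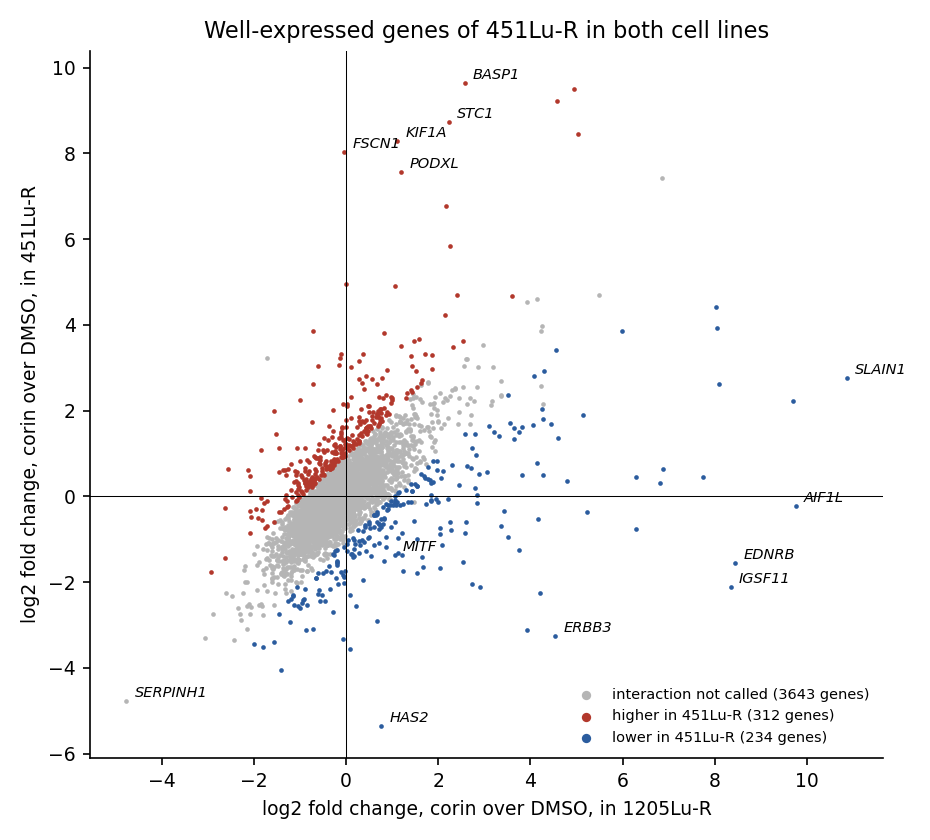
Log2 fold change, corin over DMSO, in 1205Lu-R (horizontal axis) and 451Lu-R (vertical axis) for the 4189 well-expressed genes of 451Lu-R that were tested in both lines, with red for the 312 genes whose response was higher in 451Lu-R, blue for the 234 whose response was lower and grey for the rest. *IGSF11*, *EDNRB* and *ERBB3* lie at the lower right, *FSCN1* at the upper left of the rises and *SERPINH1* near the diagonal.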

How the data were processed

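RNA-Seq of polyA RNA was sequenced on an Illumina NextSeq. The authors trimmed reads with Trimmomatic, estimated transcript abundance with Salmon against the GENCODE transcriptome and deposited expected counts per gene for every library. Versions of their tools are not given in the sources used here. The authors also deposited tables for PLX4032, which hold their own log2 fold changes and adjusted p-values and were not used.

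The expected counts were rounded to whole numbers. Genes were filtered with filterByExpr on treatment over the 4 libraries of 451Lu-R, and edgeR 4.0.16 (R 4.3.3) was used with TMM normalization and its quasi-likelihood test, 2-sided, with Benjamini-Hochberg adjustment. SEs were derived from the log2 fold change and its F value. CPM are counts in each 1000000 of the TMM-scaled library total, and percents of a library use the unscaled total. The floor was 3 counts per library. The interaction of cell line and treatment was tested on 8 libraries. Libraries were grouped by their labels. Of 34228 gene IDs, 34052 matched GENCODE 44, from which positions and overlaps were taken. On simulated counts for 451Lu-R (14530 genes, 200 changed), 97% of 2-fold and 100% of 4-fold changes were recovered at an adjusted p under 0.001, with 2 false calls. For the interaction (16062 genes) the shares were 80% and 100%, with 0 false calls. These shares leave out the 2-fold limit, and no gene with few counts was changed. They do not measure recovery under the full calling rule or for such genes, and far fewer genes were changed than were called in the data.

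Named genes were the 12 largest rises and 12 largest falls among well-expressed genes, the 5 largest gains and losses in CPM, the 8 genes of highest CPM in each group, up to 4 called members of each list that averaged 10 CPM or more, its 2 members of highest CPM, the genes the study names, the cell type markers, and the 5 largest interactions in each direction. The comparison, the 48 gene lists and the rules were chosen with earlier results of these data known. Alternatives covered the tool (DESeq2 1.42.0), normalization, filter, thresholds, replicate block, a joint fit and each library left out. Some genes chosen by these rules are not reported here.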

Additional observations from a re-analysis of the deposited data

Results flagged for a closer look

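The response to corin differed between the 2 cell lines, by the interaction test, in 1138 genes that were higher in 451Lu-R and 921 that were lower. Among well-expressed genes the largest positive differences, as log2 fold change in 451Lu-R minus that in 1205Lu-R, were 8.10 for *FSCN1*, 7.22 for *KIF1A*, 7.11 for *BASP1*, 6.53 for *STC1* and 6.41 for *PODXL*. In 1205Lu-R these genes already had at least 241 counts in each DMSO library. In 451Lu-R *FSCN1*, *KIF1A*, *BASP1* and *STC1* had at most 7 counts in a DMSO library, so the sizes of these differences are uncertain. The most negative differences were -10.43 for *IGSF11*, -9.98 for *EDNRB*, -9.96 for *AIF1L*, -8.09 for *SLAIN1* and -7.76 for *ERBB3*. Each of these last 5 had at most 3 counts in either DMSO library of 1205Lu-R, so the direction rests on a gene that was near silent there and the size is uncertain.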

How the results depend on the processing

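Call counts depended mainly on the thresholds. With a fold change of 4, 1803 genes rose and 395 fell, 135 and 78 of them well-expressed. With an adjusted p under 0.05 and no fold limit, 6006 rose and 5606 fell, 1779 and 2033 of them well-expressed, and the interaction gave 4359 higher and 3626 lower. A minimum of 20 CPM for well-expressed genes gave 963 and 944, and one of 100 CPM gave 216 and 215. DESeq2 called 2626 and 1494 genes, and edgeR scaled to library size 2761 and 2083, 427 and 571 of them well-expressed. Promoter windows covered under 80% of the 4-fold fallen set (62 of 78) and of the risen sets (102 of 135 and 357 of 485), so nothing is read from the following shares. At 4-fold, windows of fallen genes held CATGTG in 12.9% and TGACGTCA in 1.61%, and those of risen genes CATGTG in 1.96%, CAGGTG in 25.5%, TGANTCA in 1.96% and GGGCGG in 74.5%, against 9.45%, 2.89%, 4.2%, 17.4%, 6.16% and 81% at 2-fold. No library left out moved a count of calls by over 1.5 times. Among the 242 named genes, *CCNG1*, *EIF4A1*, *MCL1* and *ZNF217*, all near 2-fold, changed their call under an alternative other than the thresholds.

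The replicate numbers were not found to pair the libraries (correlation of deviations -0.0277). With the replicate number as a block 2909 genes rose and 1696 fell, 485 and 456 of them well-expressed, the interaction gave 1084 and 834, and no named gene changed its call. Differences well under 2-fold passed the adjusted p, so the fold limit, not depth, sets most calls among well-expressed genes.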

Other observations

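Several gene groups not described above held few calls. Of 30 endoplasmic reticulum chaperones 3 rose (10%, against 20.6% of all genes) and 1 fell (3.33%, against 11.9%). All 30 reached the count minimum with DMSO, where 13.2% of genes rose. Of 20 tRNA synthetases 1 fell (5%), and of 16 deacetylases outside the CoREST complex 3 rose (18.8%) and 1 fell (6.25%). Of 33 germline antigens 10 were tested and 2 rose by edgeR (20%, near the 20.6% of all genes) and 0 by DESeq2. Of 10 genes that the study names, 5 rose and 3 fell. This is no independent evidence, since the study named them in describing data that include these samples. Long noncoding RNAs took 0.949% and 0.951% of counts with DMSO and 0.876% and 0.875% with corin.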
